A study of Homo sapiens with 12 samples.

Results

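The vehicle group of the RNA-Seq experiment, 3 of its 12 libraries, was used here to describe which genes HEK293T cells expressed without an added compound. The libraries are those that the sample labels call DMSO replicates 1 to 3, chosen by label alone, and no other library was compared with them. HEK293T is a widely used line of transformed human embryonic kidney cells, and the labels give its genotype as WT. Cells grew in DMEM with 10% FBS to about 90% confluency. One protocol text is shared by the labels of all 12 libraries and covers 4SU, irradiation at 312 nm and 1 J/cm2 and the probe CEP, so whether cells given DMSO were also irradiated or moved to serum-free medium is not stated. The study describes its replicates as biologically independent experiments, while the labels do not name separate cultures. RNA with a poly(A) tail was selected on poly-T beads before sequencing.

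HEK293 cells were made from cells of an embryonic kidney with a fragment of adenovirus DNA, and the 293T line also carries the large T antigen of a polyomavirus, which binds tumor suppressor proteins. The line grows fast, takes up DNA readily and is a common host for recombinant receptors, channels and viral vectors. What such a host expresses by itself decides which receptors, channels and sensors are already present before any is introduced.

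Counts on genes summed to 23314541, 20325464 and 24644734 in replicates 1, 2 and 3. Levels are given as FPKM, counted fragments scaled by library size and divided by gene length. This length is that of all annotated exons of a gene, so genes with long annotated exons look low, and ranks and ratios between genes carry this limit. A gene was counted as expressed at a mean of at least 1 FPKM over the 3 libraries and near silence under 0.1 FPKM. Values listed in a row are those of replicates 1, 2 and 3 in that order, and ± is the SD over these 3 libraries. A gene of 2 kb with 3 counts had 0.0656, 0.0734 and 0.0614 FPKM, and for a gene at 0 counts in all 3 libraries the level that 3 counts over the group would give is printed as its upper limit. These limits cover counting error only.

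Of 58735 annotated genes, 13242 were expressed, 5077 reached 10 FPKM and 359 reached 100 FPKM. The 359 genes of at least 100 FPKM held 38.1% of the summed FPKM. In contrast, 29222 genes had no count in any library. The 50 most abundant genes of at least 200 bases made up 15.7%, 16.4% and 16.5% of the summed FPKM. Among these 50 were 19 genes of cytosolic ribosomal proteins, 12 of the mitochondrial genome, 4 of the cytoskeleton, 2 of glycolysis, 2 heat shock proteins, 2 translation factors and 2 processed pseudogenes. The other 7 were YBX1, NPM1, CKB, ATP5F1B, FTL, PTMA and SLC25A5. In these libraries the upper end of the transcriptome was therefore mostly protein synthesis and the mitochondrial genome.

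**Figure D1:**
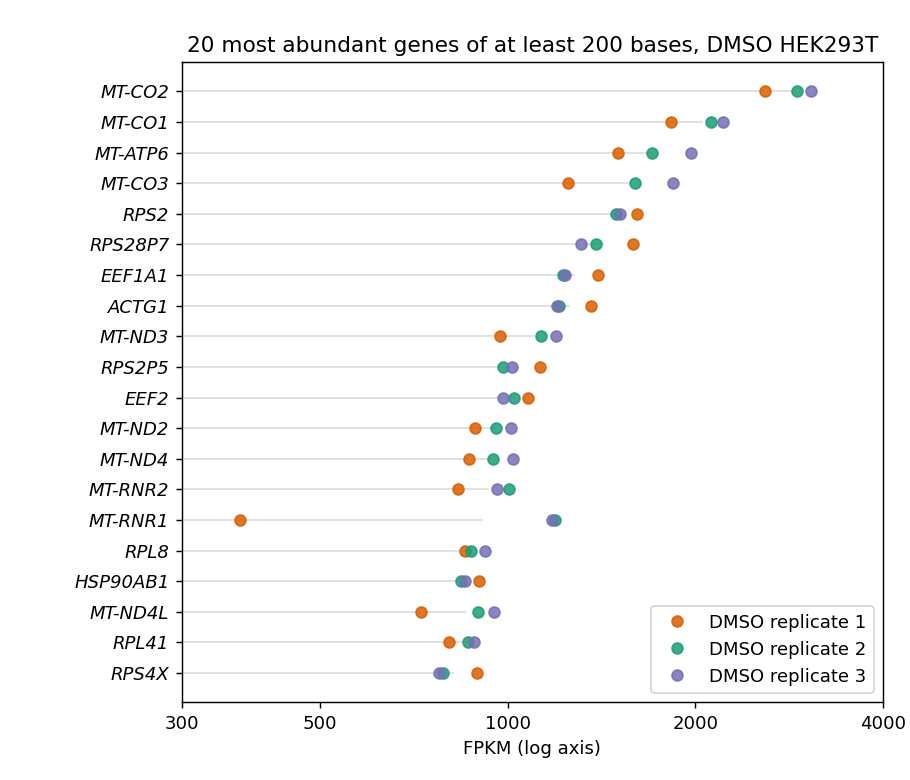
FPKM on a log axis of the 20 most abundant genes of at least 200 bases, 1 row per gene and 1 point per DMSO library. MT-CO2 leads with 2591 to 3064 FPKM, and MT-RNR1 is the gene whose 3 points lie farthest apart, 371 in replicate 1 against 1189 and 1180.

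The start sites of 7 abundant nuclear protein-coding genes are shown first, because many genes of the translation machinery begin their RNA in a run of C and T bases, the terminal oligopyrimidine motif, through which growth signals control their translation. Each line holds 20 bases before and 20 bases after the start that RefSeq gives on GRCh38.p14, 5′ to 3′ on the gene's own strand, with the longest run of C and T that is led by C and begins within 5 bases of the start in capitals. EEF1A1 (chr6:73521013-73521052, minus strand) and EEF2 (chr19:3985444-3985483, minus strand) encode translation elongation factors. RPL41 (chr12:56116613-56116652, plus strand) and RPS4X (chrX:72277229-72277268, minus strand) encode ribosomal proteins. ACTG1 (chr17:81512780-81512819, minus strand), HSP90AB1 (chr6:44246174-44246213, plus strand) and YBX1 (chr1:42682398-42682437, plus strand) encode a cytoskeletal actin, a chaperone and an mRNA-binding protein, and stand beside them for comparison.
EEF1A1: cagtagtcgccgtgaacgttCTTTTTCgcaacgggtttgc
EEF2: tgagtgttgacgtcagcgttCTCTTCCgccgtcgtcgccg
RPL41: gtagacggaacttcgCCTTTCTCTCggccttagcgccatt
RPS4X: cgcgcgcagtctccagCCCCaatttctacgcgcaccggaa
ACTG1: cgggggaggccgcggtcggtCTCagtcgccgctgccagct
HSP90AB1: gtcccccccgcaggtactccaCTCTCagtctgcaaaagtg
YBX1: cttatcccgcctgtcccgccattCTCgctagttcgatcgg
The run was 7 bases long in EEF1A1 and EEF2, 10 in RPL41, 5 in HSP90AB1, 4 in RPS4X and 3 in ACTG1 and YBX1. At a limit of 5 bases the chaperone gene HSP90AB1 thus had the run and the ribosomal protein gene RPS4X did not. Over the protein-coding genes with a RefSeq promoter, a run of at least 5 bases beginning within 5 bases of the start was found in 51 of 66 ribosomal protein genes (77.3%). Its share was 36.7% of the genes of at least 100 FPKM, 23.04% of those from 10 to 100 FPKM, 21.8% of those from 1 to 10 FPKM and 22.2% of all 15364 genes matched. Of the 97 genes of at least 100 FPKM that held the run, 39 were ribosomal protein genes. A ratio of observed to expected CpG of at least 0.6 was found in 83.7%, 91.9% and 93.9% of promoters at 1 to 10, 10 to 100 and at least 100 FPKM. For genes under 1 FPKM fewer than 80% had a promoter entry, so no value is given. A match is a description of the letters and not of use of the site.

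The mitochondrial genome gave the most abundant single RNAs. MT-CO2, a subunit of cytochrome c oxidase, had 2591, 2917 and 3064 FPKM. MT-CO1 of the same complex had 1830, 2122 and 2215 FPKM, and MT-ATP6, a subunit of ATP synthase, had 1502, 1706 and 1966 FPKM. Replicate 1 was the lowest for each of these. Genes on the mitochondrial genome held 5.69%, 7.03% and 7.35% of the summed FPKM but 1.27%, 1.58% and 1.65% of the counts, since they are short.

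Among nuclear genes RPS2, a protein of the small ribosomal subunit, led with 1613, 1491 and 1517 FPKM. EEF1A1, which brings aminoacyl-tRNA to the ribosome, had 1395, 1225 and 1234 FPKM, and EEF2, which moves the ribosome along, had 1078, 1022 and 984 FPKM. ACTG1 had 1362, 1207 and 1202 FPKM. All 4 were highest in replicate 1. By counts, without division by length, EEF1A1 was first with a mean of 172624, followed by EEF2 with 93385, ACTG1 with 84952 and RPS2 with 83962. Of 85 genes named as cytosolic ribosomal proteins, 81 were expressed, with a median of 223 FPKM over the 85. The testis and muscle paralogs RPL10L and RPL3L had 0 and 0.51 FPKM.

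Some of the ribosomal protein genes were low in this table although every cell needs the protein. RPS10 had 1.29 FPKM and RPL36A 2.99 FPKM, while the processed pseudogenes AC024293.1 and AC116533.1, intronless copies of these same mRNAs elsewhere in the genome, had 295 ± 35.0 and 409 ± 13.5 FPKM. EEF1G, a subunit of the elongation factor complex, was listed at 0 while its copy AC008038.1 had 180 FPKM. The exons of EEF1G share 99.9% of their bases with another gene on the same strand, those of RPS10 39.4% and those of RPL36A 8.40%. The most abundant copy was RPS28P7, with 1592, 1388 and 1310 FPKM, while RPS28 itself had 33.8, 36.2 and 37.6 FPKM.
RPS28P7 lies on GRCh38 at chr11:82689559-82689768 on the plus strand and is 210 bases long. It is shown because it equals a transcript of RPS28 in GENCODE 29 at all 210 bases, with 0 differences, so a read inside it could have come from either gene.
RPS28P7: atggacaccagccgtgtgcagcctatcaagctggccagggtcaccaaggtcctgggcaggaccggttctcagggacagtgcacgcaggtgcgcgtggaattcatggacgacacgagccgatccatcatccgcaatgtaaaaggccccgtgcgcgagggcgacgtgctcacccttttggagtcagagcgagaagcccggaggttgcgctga
By mean counts, the pseudogene had 6774 and RPS28 1717. RPS28 is annotated with 2119 bases of exon, so the same count gives it a lower FPKM.

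The same held for abundant processed pseudogenes as a class. Of 10191 processed pseudogenes 419 were expressed, and they held 3.62% ± 0.153 of the summed FPKM but 0.542% of the counts. Among the 397 expressed ones of at least 200 bases, 198 (49.9%) shared at least 50% of their 31-base words with the transcripts of 1 protein-coding gene, against 0.998% of the 6917 that had no count. The share was 87.0% of the 100 pseudogenes at 10 FPKM or more and 100% of the 19 at 100 FPKM or more, and 15 of these 19 matched a ribosomal protein gene. Of the 397, 354 shared at least 1 such word with a coding gene. In 42 of these the pseudogene had a higher FPKM than the gene sharing most words, which need not be its source. H3F3AP4, with 231 FPKM against 127 FPKM for the histone gene H3F3A, was identical to its coding gene over its whole length. Levels of such a pair are uncertain one by one.

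Protein-coding genes held 91.98% ± 0.351 of the summed FPKM and 97.7% ± 0.133 of the counts. Of 19951 of them, 11188 (56.1%) were expressed, 5958 (29.9%) were near silence and 3260 had no count. The shares of 56.1% and 29.9% are the background for the counts of protein-coding list members below. Their median among the expressed was 8.11 FPKM. By chromosome, the expressed share of protein-coding genes ran from 47.0% on X to 62.0% on 13. LincRNA genes contributed 351 expressed of 7629 and 0.640% of FPKM, and antisense genes 459 of 5583 and 0.765%.

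Gene models that share nearly all of their exon bases with another gene were often empty. Of the 11097 protein-coding genes without shared exon bases 20.1% had no count, against 71.4% of the 475 genes that share at least 90% of their bases with a gene on the same strand. Only 1 of these 475 was expressed. Of the 24 genes that share at least 90% with genes on the other strand only, 79.2% had no count and 0 were expressed. At 50 to 90% of bases shared, 29.8% of 433 genes had no count on the same strand and 13.7% of 124 on the other strand only. Over all 4036 genes that share at least 10%, 18.7% had no count. Values under 1 FPKM are given below with the share of exon bases where it reaches 10%, and 146 of the 852 genes in the lists used below share at least 10%.

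Of the noncoding RNAs, NORAD, a cytoplasmic RNA that binds Pumilio proteins, was the most abundant lincRNA with 59.6, 64.3 and 64.9 FPKM. Host genes of small nucleolar RNAs followed, with SNHG19 at 28.4 ± 8.23 FPKM and SNHG8 at 23.7 ± 3.20 FPKM. Of the RNAs annotated as processed transcripts, DANCR had 41.5 ± 2.53 FPKM and GAS5, another snoRNA host, 37.5, 38.2 and 37.5 FPKM. VPS9D1-AS1 (32.4 FPKM, 29.5% of bases shared with other genes) and FGD5-AS1 (27.5 FPKM) were among the leading antisense RNAs.

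The nuclear RNAs MALAT1 and NEAT1 did not agree as well between libraries. MALAT1 had 4.66, 18.9 and 14.8 FPKM and NEAT1, the scaffold of paraspeckles, 3.78, 5.80 and 5.17 FPKM, both lowest in replicate 1. HOTAIR, transcribed from the HOXC locus, had 4.95 FPKM. Of 22 members of a list of abundant nuclear and cytoplasmic lncRNAs, 16 were expressed. The list names RNAs known to be abundant, so this share does not describe lncRNAs in general. At least 10% of exon bases were shared in 11 of the 22, and 8 of the other 11 were expressed.
Of 17 listed small nuclear and cytoplasmic RNAs without a poly(A) tail 2 were expressed and 12 had no count. At least 10% of exon bases were shared in 6 of the 17. Over whole biotypes, 3.20% of snRNA, 2.52% of misc_RNA and 8.06% of snoRNA genes were expressed, so 2 of 17 is not low for such genes. RN7SL2, the RNA of the signal recognition particle, had 219, 223 and 366 FPKM, while RN7SL1 and RN7SK were at 0 with all of their bases shared with another gene. Very short genes need the same reserve. Of 7623 genes under 200 bases 331 were expressed, with a median mean count of 4.67, against a median of 810 counts for the expressed genes of 200 bases or more.

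Of 1547 genes that the table marks as transcription factors or cofactors, 1006 (65.0%) were expressed, against 56.1% of all protein-coding genes, and 13 reached 100 FPKM. YBX1, a cold shock protein that binds RNA and DNA, led with 767, 763 and 775 FPKM. It was followed by ATF4 of the amino acid and stress response (289 ± 8.31 FPKM), the zinc finger protein CNBP (287 ± 16.6 FPKM) and PARP1, which adds ADP-ribose at DNA breaks (257 ± 8.90 FPKM). HMGA1, ID2, MYBL2 and HES4 had 183, 163, 155 and 137 FPKM. JUN was less even, with 106, 116 and 134 FPKM. The coefficient of variation of YBX1 over the 3 libraries was 0.829%.

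The C2H2 zinc finger genes were the largest class, with 413 of 629 expressed at a median of 1.97 FPKM over the class. Homeobox genes followed with 114 of 192, then bHLH genes with 53 of 101. The E2F family, which drives S phase genes, had 10 of 11 expressed and the MYB family 21 of 22. PAX genes had 3 of 9, POU genes 6 of 16, ETS genes 12 of 29 and T-box genes 7 of 17. FOXC1, a forkhead factor of mesoderm, had 111, 109 and 112 FPKM, the highest of 47 forkhead genes.

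Markers of 11 cell lineages, 144 genes in all, were read next, and 45 of them were expressed, against 56.1% of all protein-coding genes. The labelled tissue was embryonic kidney. Of 14 regulators of kidney development 9 were expressed. SIX2, which maintains nephron progenitors, had 15.9, 14.9 and 13.2 FPKM, and SALL1, a zinc finger factor of the same progenitors, 7.73, 7.01 and 7.16 FPKM. GATA3, WT1, EYA1, PAX2 and RET lay between 1.04 and 2.51 FPKM. PAX8, a regulator that the renal epithelium keeps, had 0 counts in all 3 libraries, which allows up to 0.00599 FPKM. The renal regulators were thus present in part, with 2 of the 14 near silence.

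Markers of the finished nephron were almost all low, with 2 of 17 expressed and 14 near silence. PODXL, a sialomucin of podocytes that other cells also make, had 9.15, 9.54 and 9.29 FPKM, and LRP2, the megalin receptor of the proximal tubule, 1.859, 1.998 and 1.776 FPKM. UMOD of the thick ascending limb, the water channel AQP2 of the collecting duct (17.7% shared) and the anion transporter SLC22A6 had no count, which for UMOD allows up to 0.0130 FPKM.

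Among 20 neuronal genes 11 were expressed. UCHL1, a deubiquitinase abundant in neurons, had 125, 110 and 110 FPKM. The neurofilament genes NEFM (35.2, 40.3 and 38.3 FPKM), NEFL (29.5, 28.1 and 26.7 FPKM) and the related INA (21.5, 20.7 and 19.7 FPKM) were expressed in every library, as was the neuronal enolase ENO2 (18.2, 18.3 and 17.9 FPKM). NEFM shares 38.94% and NEFL 11.3% of exon bases with other genes. The third neurofilament gene NEFH had 0.335, 0.323 and 0.368 FPKM. MAP2 of dendrites had 0.135 FPKM, DCX of migrating neurons 0.00731 FPKM, ELAVL4 0.00209 FPKM and TUBB3 0.153 FPKM (35.8% shared). Between these ends lay other expressed members, among them SYP (5.41 FPKM), CNTNAP2 (2.70 FPKM), SYT1 (2.25 FPKM), GAP43 (2.05 FPKM) and GAD1 (1.29 FPKM). The genes were named by their level or after their values were seen, so the gap between the named ones is no result about the list.

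The adrenal list, which stands for the gland next to the kidney, had 0 of 14 genes expressed and 10 near silence. Its highest genes were PNMT, which makes adrenaline, with 0.750, 0.806 and 0.534 FPKM and the granule protein CHGA with 0.324, 0.394 and 0.185 FPKM. NR5A1, the regulator of steroid-making cells, had 0.211 FPKM, and PHOX2A of chromaffin cells had no count.

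Epithelial and mesenchymal genes were both present. Of the 14 epithelial genes 6 were expressed, with KRT18 at 20.5, 17.7 and 18.1 FPKM, KRT8 at 13.5, 13.7 and 13.4 FPKM, ESRP2 at 6.83 FPKM and OCLN at 5.71 FPKM. CDH1 (E-cadherin) had 2.24, 2.20 and 2.37 FPKM and EPCAM 2.34, 1.26 and 2.15 FPKM. Of the 14 mesenchymal genes 10 were expressed, with VIM at 49.9, 46.1 and 43.8 FPKM, CDH2 (N-cadherin) at 23.7, 22.2 and 20.8 FPKM, TWIST1 at 7.98, 8.35 and 6.75 FPKM and SNAI2 at 7.26, 8.02 and 7.40 FPKM. CDH2 was above CDH1 in every library without overlap. COL1A1 had 4.10, 4.19 and 4.22 FPKM while COL1A2, which encodes the other chain of type I collagen, had no count, which allows up to 0.00397 FPKM.

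Of 15 pluripotency and germ cell genes 4 were expressed. LIN28B, which blocks maturation of let-7, had 21.5, 20.8 and 21.7 FPKM and PRAME, a cancer-testis gene, 14.1, 11.8 and 12.7 FPKM. SOX2 had 3.36, 3.33 and 2.67 FPKM, POU5F1 0.453 FPKM and NANOG 0.00253 FPKM. LIN28A had no count, which allows up to 0.0111 FPKM. Markers of other lineages were 1 of 11 for blood, 1 of 8 for endothelium (ESAM, 1.10 FPKM), 1 of 9 for muscle (MYOD1, 1.09 FPKM) and 0 of 8 for hepatocytes, where ALB had no count (up to 0.0131 FPKM).

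HOX genes encode the homeodomain factors that give cells their position along the body axis, and a mature tissue keeps a part of the 4 clusters active. Here 33 of 39 were expressed. The HOXA cluster on chromosome 7 had 11 of 11, the HOXB cluster on chromosome 17 had 9 of 10, the HOXC cluster on chromosome 12 had 8 of 9 and the HOXD cluster on chromosome 2 had 5 of 9. HOXB9 was the highest with 77.1, 74.7 and 76.0 FPKM, then HOXD13, the last gene of its cluster, with 60.4, 54.8 and 55.1 FPKM, and HOXA5 with 41.8, 41.1 and 44.5 FPKM. These 3 did not overlap. HOXC was led by HOXC9 with 16.7, 18.7 and 16.7 FPKM and HOXC10 with 15.3, 14.7 and 14.4 FPKM.

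Within HOXD, HOXD10, HOXD11, HOXD9 and HOXD8 had 16.8, 11.3, 7.82 and 3.219 FPKM, whereas HOXD12 between HOXD11 and HOXD13 had 0.373 FPKM. HOXD4, HOXD1 and HOXD3 had 0.247, 0.156 and 0.0866 FPKM, with 80.5%, 58.1% and 74.1% of their bases shared. Outside HOXD, HOXC5 had 0.162 FPKM (59.9% shared) and HOXB1, the most anterior gene of its cluster, had no count. In the HOXA cluster 7 of 11 genes share at least 10% of their exon bases with other genes, and 19 of the 21 HOX genes without such sharing were expressed.

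**Figure D2:**
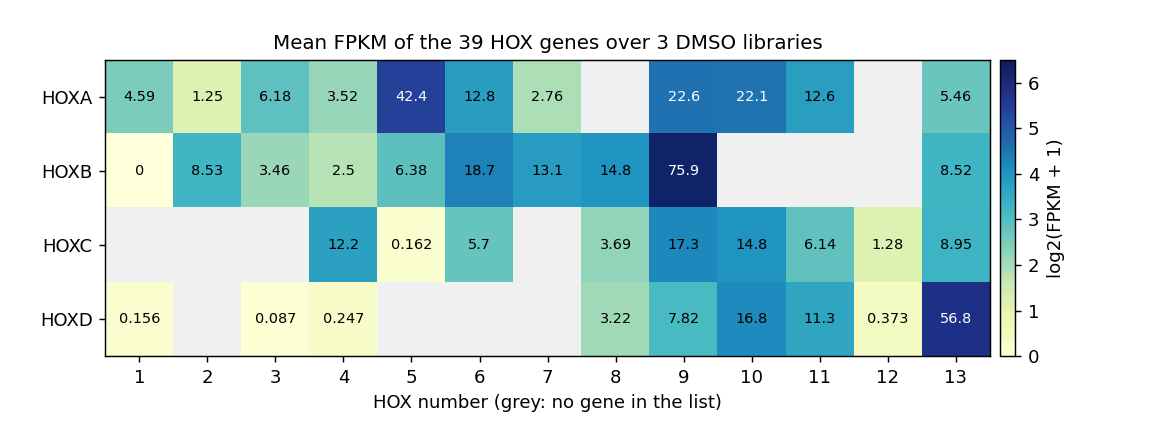
Mean level of the 39 HOX genes over the 3 DMSO libraries, coloured by log2(FPKM + 1), with the 4 clusters as rows and the HOX number as columns. HOXB9, HOXD13 and HOXA5 are the darkest cells (75.9, 56.8 and 42.4 FPKM), and HOXD1, HOXD3, HOXD4 and HOXD12 are pale.

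The cell cycle was read from 20 genes of proliferation and replication, all of which were expressed, with a median of 70.8 FPKM. PCNA, the sliding clamp, had 250, 235 and 234 FPKM, the helicase subunit MCM7 147, 133 and 144 FPKM and MKI67 22.2, 26.6 and 24.4 FPKM. All 13 genes in the list of CDK inhibitors and tumor suppressors were expressed too. CDKN2A, the locus of the p16 and ARF proteins, had 78.3, 67.0 and 70.7 FPKM, CDKN1A 17.3, 18.5 and 16.9 FPKM and RB1 14.47, 14.90 and 14.99 FPKM.
Telomerase genes were present. TERT, the catalytic subunit, had 2.34, 2.79 and 2.38 FPKM and DKC1, NOP10 and NHP2 of its RNP had 67.9, 110 and 105 FPKM. TERC, its RNA, had 0.130 FPKM, but 81% of its bases are shared with another gene.

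Cells sense foreign nucleic acid through receptors for cytosolic DNA and RNA, Toll-like receptors in membranes and the interferons that they induce. Of 17 cytosolic sensors and their adaptors 8 were expressed. The adaptor MAVS had 11.82, 12.49 and 12.91 FPKM, the kinase TBK1 8.80, 7.95 and 9.30 FPKM and the factor IRF3 15.9, 15.6 and 14.9 FPKM (19.3% of bases shared). ADAR, which edits double-stranded RNA, had 47.7, 46.1 and 49.4 FPKM. EIF2AK2 (PKR), a sensor of double-stranded RNA, had 8.80, 9.96 and 9.33 FPKM. The RNA sensor DDX58 (RIG-I) had 1.31, 1.54 and 1.33 FPKM and IFIH1 (MDA5) 0.518 FPKM.
On the DNA side, CGAS was near silence with 3, 2 and 0 counts, or 0.0184 FPKM, while its partner TMEM173 (STING) had 1.05, 1.26 and 0.957 FPKM. IFI16 had 0.0254 FPKM, and AIM2, OAS1 and OAS2 had no count.

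Of 15 Toll-like receptors and adaptors 4 were expressed, all of them signaling genes and none a receptor. The kinase IRAK1 had 190, 175 and 183 FPKM, TRAF6 3.85 FPKM, IRAK4 3.17 FPKM, TICAM1 1.60 FPKM and the adaptor MYD88 1.03, 0.859 and 0.924 FPKM. TLR2, TLR4, TLR7, TLR8 and TLR9 (86.3% shared) had no count, which for TLR4 allows up to 0.00334 FPKM. Receptors for interferon were present, with IFNAR1 at 15.2, 15.3 and 15.6 FPKM, IFNGR1 at 17.7, 18.1 and 17.5 FPKM and IFNGR2 at 19.05, 17.26 and 17.49 FPKM. The kinase JAK1 had 19.2, 19.8 and 18.9 FPKM. IFNAR2 had 0.451 FPKM with 83% of its bases shared. Of the interferons themselves, IFNB1 had 1 count in all and IFNG had none.

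Of 14 genes of inflammasomes, pyroptosis and necroptosis 2 were expressed, RIPK1 with 9.31, 10.1 and 8.47 FPKM and NLRP1 with 1.14 FPKM. NLRP3, CASP1, CASP4, CASP5, IL1B and RIPK3 (10.995% shared) had no count, with an upper limit of 0.0120 FPKM for CASP1. The pore proteins GSDMD and MLKL had 0.0114 and 0.0785 FPKM, and GSDME 0.998 FPKM.
MHC class I genes were expressed. HLA-C had 136, 123 and 129 FPKM, HLA-B 51.3, 46.5 and 45.8 FPKM and the light chain B2M 24.8, 25.0 and 25.8 FPKM. HLA genes vary between people, so counts on the reference alleles are uncertain, and HLA-B shares 18.9% of its bases with other genes. Class II genes were mixed, with CIITA, their master regulator, at 0.0480 FPKM (23.4% shared), CD74 at 0.302, 0.108 and 0.322 FPKM and HLA-DRA at 0.405 FPKM, but HLA-DRB1 at 7.402, 6.091 and 5.998 FPKM and HLA-DPA1 at 2.13, 2.44 and 1.77 FPKM. The immunoproteasome subunit PSMB8 had 0, 0.0326 and 0.0273 FPKM (20.6% shared). Of 15 cytokines and chemokines, MDK (73.2, 68.5 and 73.4 FPKM), TGFB1 (30.3, 30.9 and 32.2 FPKM) and MIF (1.03 FPKM, 61.9% shared) were expressed and TNF, IL2 and IL10 had no count.

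As a host for receptors and channels, the cells expressed few aminergic and opioid receptors, 4 of 36, with 21 near silence. ADRA2C, an alpha-adrenergic receptor, had 10.7, 9.30 and 8.95 FPKM, the serotonin receptors HTR6 and HTR1D 3.10 and 1.02 FPKM and the dopamine receptor DRD4 1.37 FPKM. The opioid receptor OPRM1 had no count. Receptors for purines, lysophospholipids, prostanoids and proteases were more often expressed than these, 14 of 26, which is near the 56.1% of all protein-coding genes. The thrombin receptor F2R had 13.4, 13.6 and 12.6 FPKM, F2RL1 11.2, 11.6 and 13.5 FPKM, the adenosine receptor ADORA2B 8.98, 8.94 and 7.66 FPKM and LPAR3 7.25, 6.56 and 6.30 FPKM. Of 28 G protein and adenylyl cyclase genes 22 were expressed, led by GNB2 (84.2, 79.8 and 82.6 FPKM), GNAS (85.1, 78.2 and 77.9 FPKM) and GNB1 (71.9, 66.1 and 68.0 FPKM).

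Voltage-gated sodium and calcium channels and potassium channels of all kinds were mostly low. Expressed were 1 of 13 sodium channel genes, 4 of 16 calcium channel genes, led by the T-type CACNA1H (9.09, 10.2 and 9.33 FPKM), and 6 of 23 potassium channel genes, led by the inward rectifier KCNJ11 (5.64, 3.80 and 3.72 FPKM). Channels that open to store depletion, lipids or force were expressed in 14 of 19 cases. PIEZO1, a mechanosensitive channel, had 13.8, 15.1 and 15.6 FPKM (20.2% shared) and PIEZO2 0.00995 FPKM. ORAI1 and its activator STIM1 had 13.5 ± 0.546 and 9.69 ± 0.233 FPKM.

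Receptor tyrosine kinases were expressed in 16 of 24 cases, against 56.1% of all protein-coding genes. FGFR3 had 20.80, 20.02 and 20.33 FPKM, EPHB4 17.5, 17.5 and 18.4 FPKM, FGFR4 11.07, 10.92 and 11.47 FPKM and MET 11.7, 11.1 and 10.4 FPKM. EGFR had 1.59, 1.79 and 1.67 FPKM and ALK no count. Of 23 Wnt receptors and regulators 22 were expressed, against 56.1% of all protein-coding genes. This list, like the others, was chosen with earlier results of these data known. Among the 22 were CTNNB1 (beta-catenin, with 52.5, 49.0 and 51.7 FPKM), the co-receptor LRP5 (16.0 ± 0.591 FPKM), LGR4 (10.8 FPKM) and AXIN1 (10.3 FPKM). The ubiquitin ligase RNF43 had 0.368 FPKM, with 74% of its bases shared.

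Of 24 virus entry receptors 20 were expressed. SLC1A5 had 91.0, 84.8 and 90.0 FPKM, TFRC 39.3, 43.3 and 41.9 FPKM, CD81 38.6, 38.1 and 35.7 FPKM and SLC7A1 31.9, 32.0 and 31.1 FPKM. CXADR, the coxsackievirus and adenovirus receptor, had 12.8, 13.1 and 14.5 FPKM, and KIAA0319L, the receptor of adeno-associated virus, 7.84 FPKM. The protease gene TMPRSS2 was near silence with 0.0710 FPKM, and CD4 had 0.179 FPKM.
Of 20 imprinted genes, normally read from 1 parental copy, 4 were expressed: PHLDA2 (16.0 ± 0.562 FPKM), GRB10 (8.33 ± 0.265 FPKM), PLAGL1 (7.45 FPKM) and CDKN1C (2.24 FPKM). MEG3, DLK1, NDN and PEG3 (12.9% shared) had no count, with an upper limit of 0.00191 FPKM for MEG3, and H19 had 0.0834 FPKM.

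A list of 9 proteins that the paper discusses by name for RNA binding was expressed in full. The splicing regulator PTBP1 had 121, 119 and 122 FPKM, the branch site protein SF3B6 106, 98.1 and 105 FPKM and the helicase DDX3X 46.4, 45.9 and 48.4 FPKM. DDX17, BCAS2, UIMC1, PPIL2, EXOC4 and DDX19B had means of 84.3, 78.6, 13.7, 10.9, 6.995 and 4.51 FPKM.

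Paralogs differed in how unequal they were. In 75 of 78 paralog families the leading member did not overlap with the next over the 3 libraries, in 50 it was at least 2-fold higher in every library, and in 26 it held at least 90% of the family's FPKM. The lead was picked by its mean over these same 3 libraries and other gene pairs were not examined, so the 75 describe how well the order repeated and are not particular to paralogs. In 15 families 1 member alone was expressed, and in 12 the lead held under 50%. Of the lead members in glycolysis, GAPDH had 661, 581 and 554 FPKM against 0.0389 FPKM for the sperm form GAPDHS (60.8% shared). PGK1 had 132, 123 and 113 FPKM against 0 for PGK2, and PKM 220, 195 and 190 FPKM against a value near silence for PKLR of liver (17.6% shared). LDHA exceeded LDHB 5.85-fold (216, 191 and 172 against 32.1, 32.6 and 34.2 FPKM, with 33.4% of LDHB shared). Replicate 1 was the highest of the 3 for each of these 4 lead genes.

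In the cytoskeleton and translation families, EEF1A1 exceeded EEF1A2, the form of neurons and muscle, 16.2-fold, although EEF1A2 still had 82.2, 79.6 and 76.3 FPKM. TMSB10, which sequesters actin, had 444, 464 and 473 FPKM and TMSB4X 17.9, 17.2 and 15.6 FPKM, a 27.3-fold difference. Part of this comes from annotated exon length, 496 against 1705 bases, and by mean counts they had 5156 against 647. ACTG1 exceeded ACTB only 1.81-fold (758, 653 and 669 FPKM for ACTB), and HSP90AB1 exceeded HSP90AA1 1.51-fold. Among lamins the B types led, with LMNB2 at 96.1, 97.9 and 99.5 FPKM, LMNB1 at 81.91, 78.03 and 82.98 FPKM and LMNA at 17.1, 15.5 and 16.1 FPKM.

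CKB, the brain creatine kinase, had 628.7, 581.5 and 554.8 FPKM, and the next gene CKMT1B 7.03 FPKM. Of the MYC genes, MYC had 83.7, 86.8 and 90.0 FPKM, MYCL 1.74, 2.74 and 2.57 FPKM and MYCN 0.219, 0.244 and 0.236 FPKM. The chromatin enzymes HDAC1 (122, 118 and 123 FPKM) and EZH2 (29.6, 28.2 and 28.9 FPKM) exceeded HDAC2 4.98-fold and EZH1 6.51-fold. The first 2 RAS genes were closer, with NRAS at 44.5, 44.1 and 44.6 FPKM and HRAS at 38.5, 35.1 and 32.1 FPKM.
RPL26L1 exceeded RPL26 3.39-fold, 57.57 against 16.97 FPKM, and EIF4A1 had 1.56 FPKM against 56.5 FPKM for EIF4A3. By mean counts RPL26L1 had 1512 and RPL26 967, with 1164 and 2513 bases of annotated exon. RPL26 and EIF4A1 share 14.3% and 48.6% of their bases with other genes. FTL exceeded FTH1 4.01-fold, with 62.4% of FTH1 shared.

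In 3 families the first 2 members overlapped. ALDOA and ALDOC had 4.23 and 4.16 FPKM (53.5% of ALDOA shared), TET3 and TET1, which oxidize methylcytosine, 4.03 and 3.89 FPKM, and the phosphofructokinases PFKL and PFKP 22.7 and 22.5 FPKM. A member with at least 10% of shared exon bases was present in 34 of the 78 families.

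**Figure D3:**
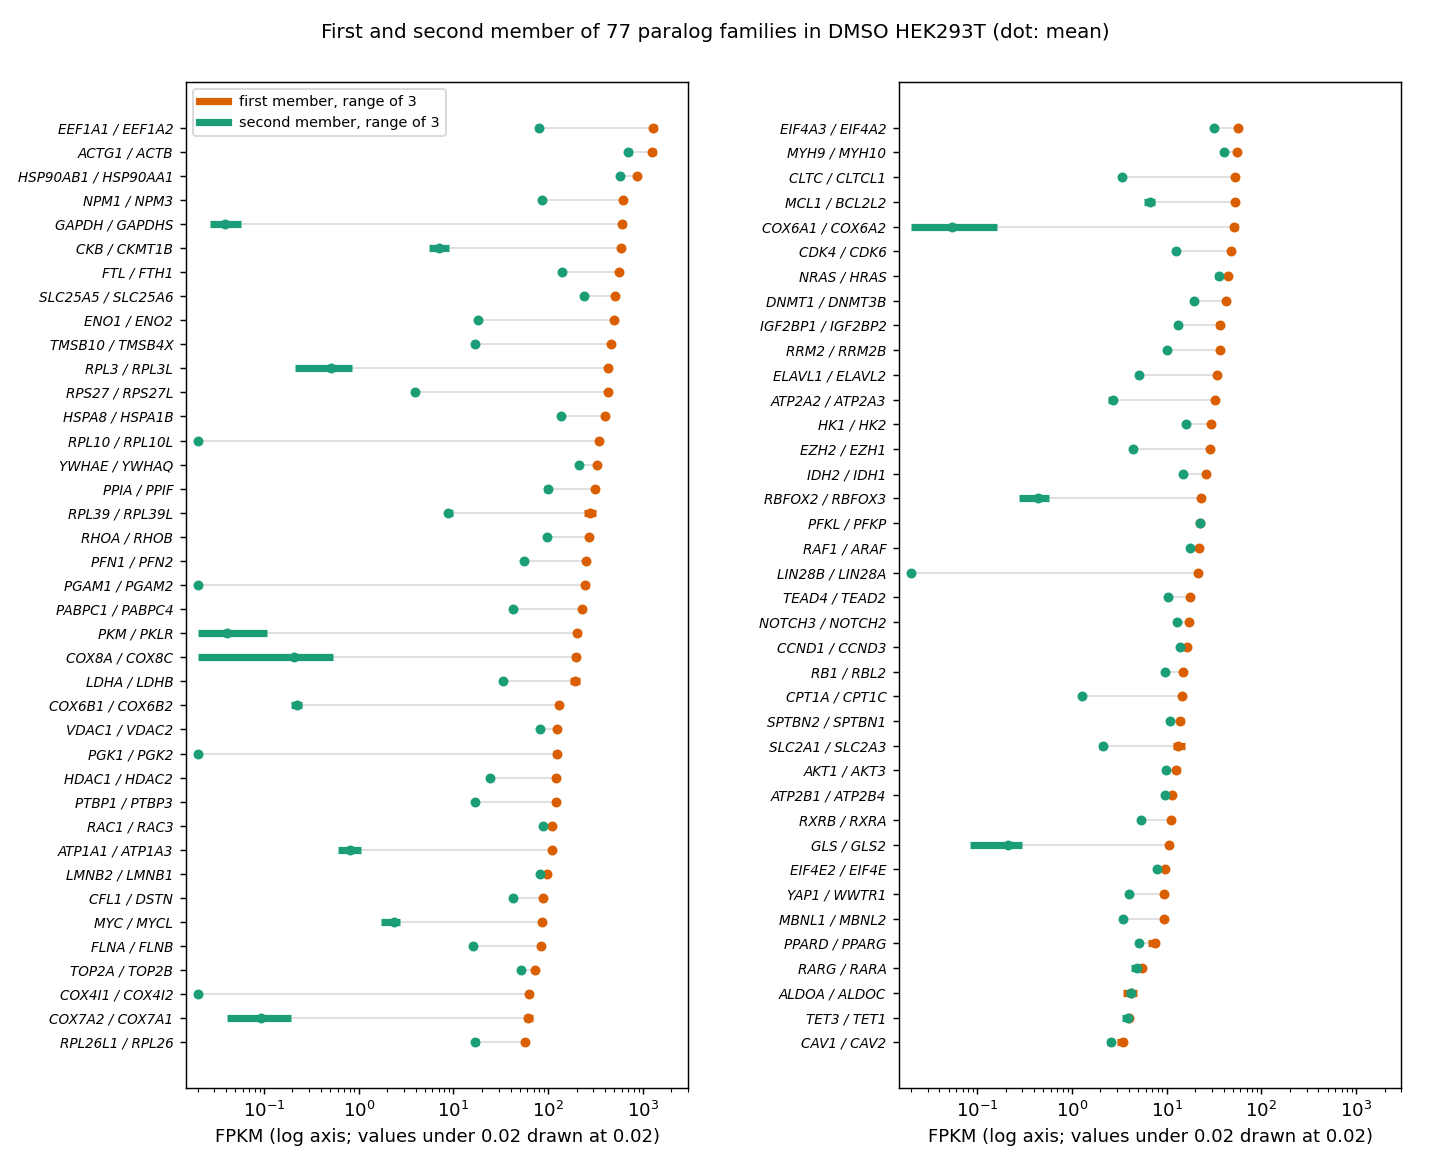
First and second member of 77 paralog families, 1 row per family, with the mean as a dot and the lowest to highest of the 3 DMSO libraries as a line, in FPKM on a log axis that draws values under 0.02 at 0.02. PGAM2 (100% of bases shared), PGK2, COX4I2, RPL10L and LIN28A are at 0, and in the aldolase, TET and phosphofructokinase families the lines overlap.

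The 3 replicates agreed closely for genes with many counts. Over the 29513 genes above 0 in any library, Pearson's r of log2(FPKM + 1) was 0.987 for replicates 1 and 2, 0.988 for 1 and 3 and 0.987 for 2 and 3, and Spearman's rho was 0.899, 0.902 and 0.898. These are correlations across genes, which are not independent replicates. Over the 11498 expressed genes with at least 100 mean counts r was 0.995 to 0.996. The median coefficient of variation of expressed genes was 6.41%, and 9438 (71.3%) were under 10%.
The spread followed the level. It had a median of 53.5% for genes from 0.1 to 1 FPKM, where counting alone gives 36.1%, then 8.51% from 1 to 10 FPKM, 4.49% from 10 to 100 FPKM and 4.74% at 100 FPKM or more, where counting gives 0.946%. The spread beyond counting, as edgeR's common biological coefficient of variation, was 0.0724 over 15816 genes. Of the 20 reference genes used to normalize qPCR all were expressed, and the most variable had a coefficient of variation of 12.01%, TBP (17.9, 14.5 and 14.7 FPKM). GAPDH varied by 9.31%.

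Detection of low genes was less repeatable. Of the 29513 genes seen at all, 20780 (70.4%) were above 0 in all 3 libraries and 5372 in 1 alone, with a median of 2 counts for genes seen in 1 library. A gene at 1 FPKM or more was above 0 in all 3 libraries in 13133 of 13242 cases.

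Replicate 1 differed from the others in certain gene classes. Of 7674 genes with at least 5 FPKM and 100 counts, replicate 1 was the farthest library in 40.3%, replicate 2 in 32.4% and replicate 3 in 27.2%. Mitochondrial mRNAs were lowest in replicate 1 in 12 of 13 cases, against 31.3% of all expressed protein-coding genes. Their median difference to the other libraries was -0.26 on the log2 scale. The mitochondrial rRNAs were lowest in replicate 1 in 2 of 2 cases (-0.96). MT-RNR1 had 371 FPKM in replicate 1 against 1189 and 1180 in the others, and MT-RNR2 833 FPKM against 1005 and 960. Cytosolic ribosomal protein genes lay 0.06 above the other libraries on the same scale, clustered histone genes at -0.18, expressed protein-coding genes under 3320 bases at 0.05 and those over 7512 bases at -0.02. Histone mRNAs mostly lack a poly(A) tail, and HIST1H1E had 3.94, 10.3 and 11.9 FPKM. What made replicate 1 differ was not tested.

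**Figure D4:**
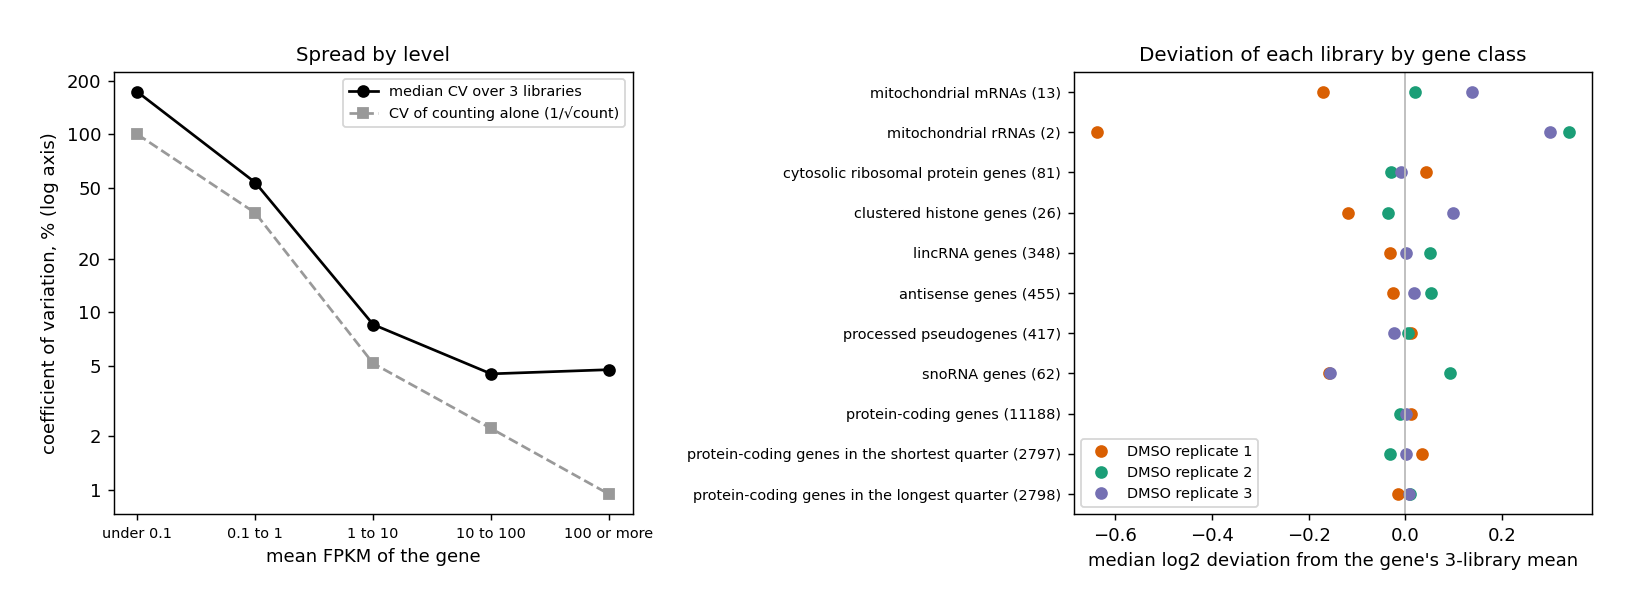
Agreement of the 3 DMSO libraries, with the spread between replicates set against the level and the median log2 deviation of each library from the gene's 3-library mean by gene class (number of genes in brackets). The spread falls from 53.5% at 0.1 to 1 FPKM to 4.49% at 10 to 100 FPKM, and replicate 1 lies low for mitochondrial rRNAs and mRNAs.

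Few expressed genes with many counts differed more than 2-fold between libraries. Of 701 expressed genes whose highest library exceeded the lowest more than 2-fold, 458 had under 20 mean counts and 249 were under 200 bases long, and 23 had at least 100 counts. Among these 23, BOLA2B, an iron-sulfur cluster factor with a near-identical copy BOLA2 nearby, had 48.5, 0.681 and 0.630 FPKM. The 2 genes together had 1515, 22 and 27 counts, so that their sum differed between libraries as the single gene did. BOLA2 shares 90.8% and BOLA2B 30.8% of exon bases with other genes, and the sum does not cover reads lost there or counted on those genes. The cause was not tested. For GPR89A and GPR89B the spread was 13.8% in the summed counts against 41.6% for GPR89B alone. U2AF1, a splicing factor, had 1.57, 0.784 and 1.54 FPKM and its copy U2AF1L5 0.913, 3.93 and 0.652 FPKM. Their summed counts still varied by 44.2%, and those of SERF1A and SERF1B by 68.1%.
Processed pseudogenes made up 14 of the 40 most variable genes but 1.75% of the genes ranked. Among them were TCEA1P2 (18.0, 4.54 and 9.99 FPKM), SPCS2P4 (23.1, 8.98 and 8.24 FPKM), LSM12P1 (39.7, 59.1 and 23.9 FPKM) and RPL14P1 (34.2, 15.9 and 18.9 FPKM). In 22 of these 40 genes the farthest library was replicate 1.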

How the data were processed

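Polyadenylated RNA of HEK293T cells was sequenced by the authors as read pairs. Per the methods and labels, reads were filtered, aligned to GRCh38 with HISAT2 2.0.5 and counted on genes with featureCounts 1.5.0-p3. The deposited counts are whole numbers without normalization. For the deposited FPKM values the authors divided the counts by the exon length of each gene and by a library size of 0.981 to 1.01 times the total count in the DMSO libraries. Gene models equal GENCODE 29 for 58735 of 58735 genes. The submitters' notes also name DESeq2 and GATK 4.1.1.0. The methods name dUTP or dTTP in strand synthesis. Whether the counting used strand, and how it treated reads that fit several genes, is not given in the sources used here. Such reads may be lost from genes with shared exons or copies.

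Only the 3 DMSO libraries, as labelled, were used, and no test between groups was made. Python 3.11.15, pandas 2.3.3 and numpy 2.4.6 were used for levels, spreads, exon overlap and shared 31-base words, R 4.3.3 and edgeR 4.0.16 for the biological coefficient of variation (filterByExpr, minimum count 10, minimum total 15), and DESeq2 1.42.0 for alternative size factors. Correlations used a pseudocount of 1. Scripts were tested on simulated data. The members and gene lists were chosen with earlier results of these data known. The gene families set by symbol and the exon overlap limit of 10% were added after the data were seen.

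Named are the 20 most abundant genes of at least 200 bases, the 10 with most counts, up to 5 genes of each noncoding biotype, the 10 leading transcription factors, up to 4 members of each list and members under 0.1 FPKM with a textbook role, the first 2 members of paralog families and the 10 most variable genes of at least 5 FPKM and 100 counts. Other genes, such as list members between these limits, near-identical copies and the pseudogenes with their coding genes, were named after their values were seen, and the text gives a selection of those the rule allows. Genes of the Y chromosome and XIST were left out. Some genes that the rule allows are not reported here, and counts include them. Alternatives were another unit (TPM), TMM or DESeq2 library sizes, other thresholds, filters and pseudocounts, and each replicate left out.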

Additional observations from a re-analysis of the deposited data

How the results depend on the processing

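No paired analysis was possible because all results come from 1 group and no test between groups was made. Of 83 alternatives over the main counts and shares, 60 kept the value within its limit and 23 moved it. The limit for counts was a wide ratio, under which 18072 expressed genes with TPM, against 13242, still passed as kept. So did 50 paralog families with a 2-fold lead in every library, against 75 separated ones. Other library scalings multiply all genes of a library alike. The protein-coding share could therefore not change and the top 50 share hardly could, so these rows do not speak for stability. Genes expressed numbered 5077 at a limit of 10 FPKM and 10803 to 18072 under the others, against 13242. The share of detected genes seen in every library was 84.98% against 70.4% with at least 10 counts, 72.5% for genes of at least 200 bases and 78.8% to 79.1% with 1 replicate left out, where 2 libraries must detect the gene. The top 50 share was 10.1% as a share of counts, against 16.2%, and 13.1% without mitochondrial genes. The protein-coding share was 97.7% of counts, against 91.98% of FPKM, and 93.1% without genes under 200 bases. The median coefficient of variation moved from 6.41% to 8.77% with genes of 1 TPM, 4.52% at 10 FPKM, 11.9% at 0.1 FPKM and 27.1% without a filter, and to 4.82% to 5.78% with 1 replicate left out. The lowest replicate correlation moved from 0.987 to 0.971 with TPM, 0.952 with a pseudocount of 0.1, 0.984 for expressed genes and 0.898 as Spearman's rho, and lay between 0.987 and 0.988 with 1 replicate left out. The biological coefficient of variation of 0.0724 became 0.0616 without replicate 1 and reached 0.0788 without another replicate. Separated paralog families numbered 62 of 64 when genes with at least 10% of shared exon bases were left out, expressed lineage markers 40 of 124 and pathway members near silence 102 of 377, against 75 of 78, 45 of 144 and 123 of 449.

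Depth limits values below 0.0614 to 0.0734 FPKM for a gene of 2 kb, which rest on fewer than 3 counts in a library. The division by exon length makes short genes with few counts look abundant and genes with long annotated exons look low. With 3 libraries of 1 line the spread cannot be split into culture and library preparation.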

Other observations

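Large gene families were grouped by symbol after the data were seen. None of 381 olfactory receptor genes was expressed and 348 had no count, with OR1F1 the highest at 0.777 FPKM. None of 24 bitter taste receptors and none of 53 clustered protocadherins, adhesion proteins of neurons, was expressed. Genes with shared exon bases were not left out of these family counts. Of 94 keratin-associated proteins 1 was expressed, of 39 beta-defensins 1, of 55 keratins 4 and of 408 immunoglobulin and T cell receptor segments 4. One of these segments, IGLV5-52, had 14.9, 17.8 and 12.4 FPKM.

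Drug metabolism genes were mostly low, with 15 of 56 cytochrome P450 genes expressed, led by CYP20A1 (5.45 FPKM) and CYP2R1, a vitamin D hydroxylase (3.70 FPKM). Of 22 UDP-glucuronosyltransferase genes 2 were expressed, and the leading UGT8, which makes galactosylceramide, had 8.25 FPKM. Ligand-gated channels had a few members each, with 1 of 19 GABA-A subunits, 3 of 19 ionotropic glutamate receptor subunits (GRIN2D, 3.56 FPKM) and 3 of 16 nicotinic subunits (CHRNA5, 6.96 FPKM).

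In addition, 77 of 78 mitochondrial ribosomal protein genes were expressed with a median of 26.2 FPKM, led by MRPS34 (187 FPKM), as were 33 of 40 proteasome genes with a median of 33.4 FPKM. Of 514 genes named ZNF 345 were expressed at a median of 1.99 FPKM, and ZNF703 stood out with 166 FPKM. Of 71 clustered histone genes, whose main mRNAs lack a poly(A) tail, 26 were expressed, with HIST1H2BK at 174 FPKM.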
